A study of Mus musculus with 9 samples.

Results

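Among the transcripts of mouse muscle given siRNA against Ubr4, 10 genes had been listed as moved by 1 of the 2 Ubr4 constructs only, and so as candidates for effects that do not come from Ubr4. They are Ube2e1, Tulp4, Eef2k, Stt3b, Sec23a, Trappc1, Kif5b, Dync1h1, Arhgap10 and Parp1. They were found by symbol among the 23231 genes of the deposited expression table, and all 10 were present. Each had a mean of at least 1 FPKM, a read level corrected for gene length and library depth, over all libraries, the filter that 10794 genes passed, so none was lost to low values. The list was chosen from the comparisons of these same 9 libraries, so the group values, differences and p-values below describe the choice and are not evidence for it.

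RNA had been taken with trizol as total RNA from the tibialis anterior, a fast muscle of the lower hind limb, of C57BL/6 mice aged 6 months. All muscles had received siRNA by electroporation, the controls included. The 3 groups held 3 libraries each: a non-targeting control siRNA, siRNA construct 5 against Ubr4 and siRNA construct 7 against Ubr4. The series concerns ubiquitin ligases that set muscle fibre size. Each construct is a single siRNA, and the sequences of the 3 siRNAs were not analysed here. RNA came from whole muscle, with fibres that took up siRNA, fibres that did not and the other cells of the tissue. In such bulk samples fewer cells of a type and less RNA per cell cannot be told apart. The labels do not say that libraries of a group came from separate animals, so p-values measure the spread between these samples, which may be technical.

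Small interfering RNAs are short duplexes whose guide strand, held by an Argonaute protein, directs cleavage of transcripts to which it pairs along nearly its whole length. A guide strand can also lower transcripts that pair with only part of it, above all with its seed near the 5′ end, and each siRNA has its own such set. For that reason a gene is usually targeted with several unlike siRNAs, and changes seen with only 1 of them are treated with caution. The intended target here, Ubr4, encodes a giant E3 ubiquitin ligase of the N-degron pathway, which marks proteins for breakdown by their N-terminal residues.

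Ubr4 itself was lower with both constructs. It stood at 7.82, 10.3 and 9.09 FPKM in control replicates 1, 2 and 3. With construct 5 it stood at 3.61, 3.80 and 2.73 FPKM, and with construct 7 at 2.25, 2.59 and 3.07 FPKM. Every library of either construct lay below every control, and the libraries of the 2 constructs overlapped. The mean was 9.06 ± 1.22 FPKM (SD, n = 3) in the controls, 3.38 ± 0.568 FPKM (SD, n = 3) with construct 5 and 2.63 ± 0.412 FPKM (SD, n = 3) with construct 7. These are 37.3% and 29.1% of the control mean. On the log2(FPKM + 1) scale, used for every difference below, limma put Ubr4 at -1.20 (SE 0.129, adjusted p = 0.0168 after Benjamini-Hochberg) for construct 5 and at -1.47 (SE 0.129, adjusted p = 0.00882) for construct 7. Construct 7 against construct 5 gave -0.27 (95% interval -0.56 to 0.02, limma adjusted p = 0.246), so the difference in Ubr4 between constructs was not past the threshold. An exact permutation test of the log2(FPKM + 1) values reached its lowest possible p with 3 libraries a group, 0.1, for both constructs. Leaving out a single library raised the limma adjusted p above 0.05 in some cases. For construct 5 it became 0.0629 on omitting control replicate 2, 0.0941 on omitting control replicate 3 and 0.0956 on omitting construct 5 replicate 1. For construct 7 it became 0.0598 on omitting control replicate 2, 0.0877 on omitting control replicate 3 and 0.0736 on omitting construct 7 replicate 2.

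A gene was called at a limma Benjamini-Hochberg adjusted p under 0.05 over all tested genes. With construct 5 against the controls 6 of the 10 genes were called, all lower: Ube2e1, Tulp4, Eef2k, Stt3b, Sec23a and Trappc1. Among all tested genes 5.27% were called in that comparison, 4.67% higher and 0.602% lower, that is 504 and 65 genes, which median-ratio scaling of the libraries turned to 14 and 64. With construct 7 against the controls 3 were called, all lower: Dync1h1, Arhgap10 and Parp1. There 0.0556% of all tested genes were called. Between the constructs 9 of the 10 were called, 6 higher with construct 7 and 3 lower, against 1.22% of all tested genes (0.148% higher and 1.07% lower). The exception was Eef2k. Since these comparisons chose the genes, nothing is read from those shares.

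The description "moved by 1 construct only" held in part. Of the 10 genes, 9 were called with exactly 1 construct, as were 5.27% of all tested genes. Kif5b was called with neither construct and only between them. Eef2k was called with construct 5 and not between the constructs. Called with 1 construct and also between the constructs were 8 genes, against 0.649% of all tested genes. Opposite signs with the 2 constructs were seen in 6 genes (Ube2e1, Sec23a, Trappc1, Kif5b, Dync1h1 and Parp1), and in 34.3% of all tested genes. Of the 3 genes called with construct 7, Arhgap10 also lay below every control in the 3 construct 5 libraries. Stt3b, called with construct 5, lay below every control with construct 7 as well. A call with 1 construct does not show that the other did nothing, so each gene's interval with the other construct is given below.

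**Figure D1:**
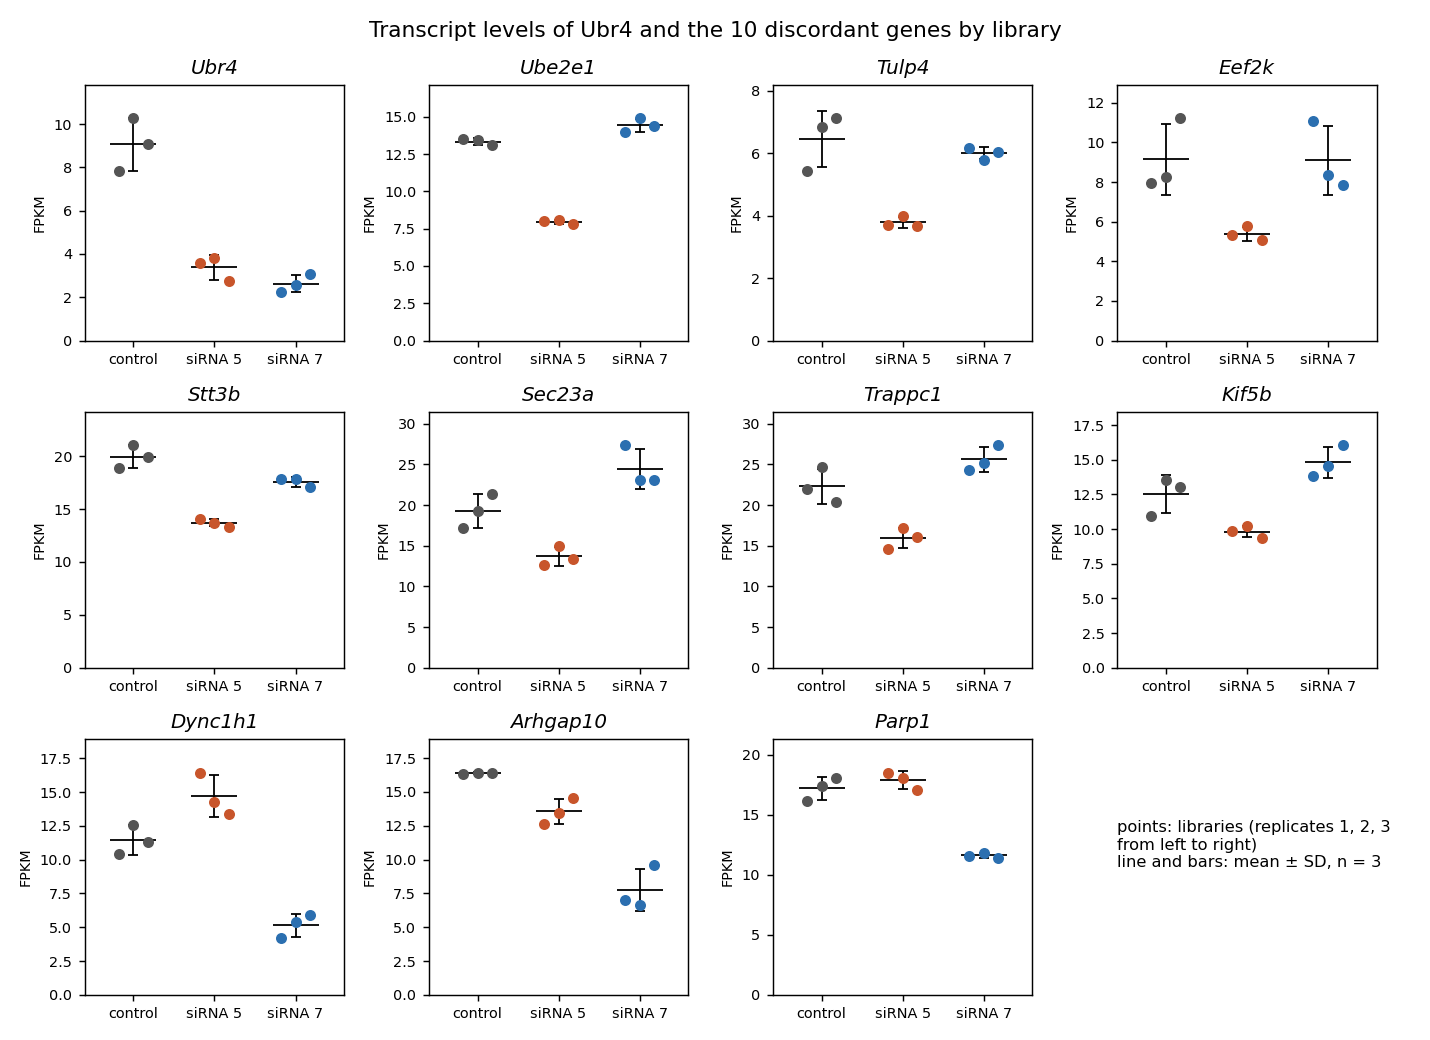
FPKM of Ubr4 and the 10 genes in each library (points), by group: control siRNA, construct 5 (siRNA 5) and construct 7 (siRNA 7), with the mean and SD (n = 3) as lines and a vertical axis that starts at 0 in each panel. Ubr4 is low in both siRNA groups, Ube2e1 in the construct 5 libraries (7.83 to 8.08 FPKM) and Dync1h1 in the construct 7 libraries (4.23 to 5.89 FPKM).

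Ube2e1 encodes a ubiquitin-conjugating (E2) enzyme, which hands activated ubiquitin on to E3 ligases such as the one Ubr4 encodes. It stood at 13.5, 13.4 and 13.1 FPKM in the controls. The construct 5 libraries held 8.03, 8.08 and 7.83 FPKM. With construct 7 it stood at 14, 14.9 and 14.4 FPKM. The 3 groups did not overlap: every construct 5 library was lowest, and every construct 7 library lay above every control. The construct 5 mean was 59.8% of the control mean and the construct 7 mean 108% of it. The log2 difference was -0.68 (SE 0.0572, limma adjusted p = 0.00631) with construct 5. With construct 7 it was 0.10 (95% interval -0.02 to 0.23, limma adjusted p = 0.618). Construct 7 exceeded construct 5 by 0.78 (95% interval 0.65 to 0.91, limma adjusted p = 0.00178). This gene was called with construct 5 and between the constructs in all 14 alternative settings run, the 9 that leave out 1 library included.

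The longest coding transcript of Ube2e1, at 1408 bases, was compared with that of Ubr4. The exons of the gene hold 4457 bases in all, so part of its sequence was not compared. The longest identical run of this transcript with Ubr4 was 13 bases, a length that 73.9% of tested genes reach. Its best window of 19 bases, the paired length of a typical siRNA, matched Ubr4 at 16 bases and had 3 mismatches. A window as close or closer was found in 96.4% of tested genes. The pair of windows is shown because Ube2e1 was lowered by construct 5 in every alternative. Positions count from 1 at the 5′ end of the transcript, and capitals mark the mismatched bases. The Ubr4 window, bases 2719 to 2737, is coding, and the Ube2e1 window, bases 127 to 145, lies in the 5′ untranslated region.
Ubr4: cagcagcagccgcCgAgCc
Ube2e1: cagcagcagccgcGgCgGc

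Tulp4 encodes a tubby-like protein with a SOCS box, the motif by which substrate receptors join cullin ubiquitin ligases. It stood at 5.42, 6.83 and 7.12 FPKM in the controls. Its construct 5 values were 3.689, 3.999 and 3.681 FPKM, and its construct 7 values 6.18, 5.79 and 6.04 FPKM. Construct 5 libraries were below all others, and construct 7 libraries lay within the range of the controls. The log2 difference was -0.63 (SE 0.0914, limma adjusted p = 0.0344) with construct 5 and -0.08 (95% interval -0.29 to 0.12, limma adjusted p = 0.839) with construct 7. Between the constructs it was 0.55 (95% interval 0.34 to 0.75, limma adjusted p = 0.0336). The call with construct 5 held in 8 of 14 alternatives and that between the constructs in 7 of 14.

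Tulp4 had the closest window to Ubr4 among the 10 genes, with 1 mismatch in 19 bases, and 5.5% of tested genes had a window as close or closer. Its longest identical run was 16 bases, a length that 5.4% of tested genes reach. Both windows are coding, at bases 8299 to 8317 of Ubr4 and 3127 to 3145 of Tulp4. Capitals mark the mismatched base.
Ubr4: tgAggtggaccatggagat
Tulp4: tgCggtggaccatggagat

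Eef2k encodes the calmodulin-dependent kinase that phosphorylates elongation factor 2 (Eef2) and thereby slows the elongation step of translation. It stood at 7.97, 8.23 and 11.2 FPKM in the controls. Construct 5 libraries had 5.31, 5.76 and 5.07 FPKM, and construct 7 libraries 11.1, 8.38 and 7.84 FPKM. Construct 5 libraries were again below all others, while controls and construct 7 spanned nearly the same range. The log2 difference with construct 5 was -0.66 (SE 0.144, limma adjusted p = 0.0471), close to the threshold, and it was called in 5 of 14 alternatives. The construct 7 mean was 99.6% of the control mean, with a 95% interval of the log2 difference of -0.33 to 0.32. Between the constructs the difference was 0.65 (95% interval 0.33 to 0.97, limma adjusted p = 0.0607). The standard error of Eef2k was the largest of the 10, and 1 control library and 1 construct 7 library stood above the rest.

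Stt3b, Sec23a and Trappc1 act in the secretory pathway, and all 3 were lower with construct 5. Stt3b encodes a catalytic subunit of the oligosaccharyltransferase, which adds N-linked glycans to proteins in the endoplasmic reticulum. It stood at 18.9, 21.0 and 19.9 FPKM in the controls. With construct 5 it stood at 14.1, 13.7 and 13.4 FPKM, and with construct 7 at 17.8, 17.9 and 17.1 FPKM. The 3 groups did not overlap, with construct 7 between the others. The log2 difference was -0.51 (SE 0.0633, limma adjusted p = 0.0344) with construct 5 and -0.17 (95% interval -0.31 to -0.03, limma adjusted p = 0.425) with construct 7. The difference between the constructs, 0.34 (95% interval 0.19 to 0.48, limma adjusted p = 0.0463), was called in only 2 of 14 alternatives.

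Sec23a encodes a subunit of the inner COPII coat, which buds vesicles from the endoplasmic reticulum. It stood at 17.2, 19.2 and 21.3 FPKM in the controls. The construct 5 libraries held 12.7, 15.0 and 13.4 FPKM, and construct 7 libraries 27.3, 23.0 and 23.0 FPKM. Every construct 5 library lay below the controls and every construct 7 library above them. The log2 difference was -0.46 (SE 0.102, limma adjusted p = 0.0476) with construct 5, called in 4 of 14 alternatives. With construct 7 it was 0.33 (95% interval 0.10 to 0.56, limma adjusted p = 0.365). Between the constructs it was 0.79 (95% interval 0.56 to 1.02, limma adjusted p = 0.0195), called in 10 of 14 alternatives.

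Trappc1 encodes a small core subunit of the TRAPP complexes, which tether those vesicles and activate Rab GTPases. It stood at 22.0, 24.7 and 20.4 FPKM in the controls. Its construct 5 values were 14.62, 17.13 and 16.04 FPKM, and its construct 7 values 24.3, 25.2 and 27.3 FPKM. Construct 5 libraries were below all others, and construct 7 overlapped the controls at their upper end. The log2 difference was -0.46 (SE 0.0897, limma adjusted p = 0.0406) with construct 5, called in 5 of 14 alternatives. With construct 7 it was 0.19 (95% interval -0.01 to 0.39, limma adjusted p = 0.550), and between the constructs 0.65 (95% interval 0.45 to 0.85, limma adjusted p = 0.0199).

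Kif5b encodes the ubiquitous heavy chain of kinesin-1, the motor that carries cargo, mitochondria among it, toward microtubule plus ends. It stood at 10.96, 13.54 and 13.04 FPKM in the controls. Construct 5 libraries had 9.89, 10.2 and 9.37 FPKM, and construct 7 libraries 13.84, 14.59 and 16.04 FPKM. The groups did not overlap, yet neither difference from the controls was called. They were -0.32 (SE 0.0894, limma adjusted p = 0.0639) with construct 5 and 0.23 (95% interval 0.03 to 0.43, limma adjusted p = 0.459) with construct 7. Only the difference between the constructs, 0.55 (95% interval 0.35 to 0.75, limma adjusted p = 0.0336), was past the threshold. It was called in 6 of 14 alternatives.

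Dync1h1 encodes the heavy chain of cytoplasmic dynein-1, the motor that moves cargo the other way, toward microtubule minus ends. It stood at 10.4, 12.6 and 11.3 FPKM in the controls. With construct 5 it stood at 16.4, 14.3 and 13.4 FPKM, and with construct 7 at 4.23, 5.36 and 5.89 FPKM. Here construct 7 was the lower group, and every construct 5 library lay above every control. The construct 7 mean was 45.1% of the control mean and the construct 5 mean 129% of it. The log2 difference with construct 7 was -1.02 (SE 0.118, limma adjusted p = 0.0277), called in 4 of 14 alternatives. With construct 5 it was 0.34 (95% interval 0.07 to 0.60, limma adjusted p = 0.1). The difference between the constructs, -1.36 (95% interval -1.62 to -1.09, limma adjusted p = 0.00416), was the largest in size of the 10 genes and was called in all 14 alternatives.

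The Dync1h1 and Ubr4 transcripts are both long, at 14342 and 15928 bases. Their longest identical run was 14 bases, which 39.1% of tested genes reach, and their closest windows of 19 bases had 2 mismatches, as close as in 49.4% of tested genes. Both windows are coding, at bases 9050 to 9068 of Ubr4 and 418 to 436 of Dync1h1. They are shown because Dync1h1 was the gene lowered most by construct 7 among the 10, and capitals mark the mismatches.
Ubr4: gaTggagaagaTgagaaag
Dync1h1: gaAggagaagaGgagaaag

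Arhgap10 encodes a GTPase-activating protein, which speeds GTP hydrolysis by small GTPases and so switches them off. It stood at 16.3, 16.4 and 16.4 FPKM in the controls. The construct 5 libraries held 12.7, 13.5 and 14.6 FPKM, and construct 7 libraries 7.03, 6.66 and 9.57 FPKM. All siRNA libraries lay below all controls, with construct 7 lowest and no overlap between groups. The log2 difference was -1.01 (SE 0.114, limma adjusted p = 0.0277) with construct 7, called in 4 of 14 alternatives. With construct 5 it was -0.26 (95% interval -0.52 to -0.00, limma adjusted p = 0.155). The difference between the constructs was -0.75 (95% interval -1.0 to -0.49, limma adjusted p = 0.0256). Of the 10 genes Arhgap10 most resembled Ubr4 in the order of its groups, control above construct 5 above construct 7. Its closest window to Ubr4 had 3 mismatches in 19 bases.

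Parp1 encodes the main poly(ADP-ribose) polymerase, a nuclear enzyme that binds DNA breaks. It stood at 16.2, 17.4 and 18.1 FPKM in the controls. Its construct 5 values were 18.5, 18.1 and 17.1 FPKM, and its construct 7 values 11.6, 11.8 and 11.4 FPKM. Controls and construct 5 overlapped, and construct 7 lay below both in all 3 libraries. The log2 difference with construct 7 was -0.53 (SE 0.0649, limma adjusted p = 0.0327), called in only 2 of 14 alternatives. With construct 5 it was 0.05 (95% interval -0.09 to 0.20, limma adjusted p = 0.574), and it became -0.09 after median-ratio scaling of the libraries. Between the constructs it was -0.58 (95% interval -0.73 to -0.44, limma adjusted p = 0.0119), called in 12 of 14 alternatives.

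Counted over the 10 genes, construct 5 and control libraries did not overlap in 9, of which 8 were lower and 1 higher. Over all tested genes they did not overlap in 38.2%, with 5.19% lower and 33% higher. Construct 7 and control libraries did not overlap in 7, of which 4 were lower and 3 higher. Over all tested genes that held for 16.8%, with 6.26% lower and 10.5% higher. The constructs overlapped with each other in none of the 10, of which construct 7 was higher in 7 and lower in 3. Over all tested genes 25.4% did not overlap, with 3.02% higher and 22.4% lower. The genes nearest the threshold can be set beside others. With construct 5, Sec23a (limma adjusted p = 0.0476) and Eef2k (0.0471) lay just inside and Kif5b (0.0639) outside. Over all tested genes Ankrd10 (0.04996) was the last inside and Ufsp1 (0.0501) the first outside. With construct 7 the last inside was Anp32e (limma adjusted p = 0.0428) and the first outside Obfc2a (0.0912). Between the constructs these were Bloc1s3 (limma adjusted p = 0.0493) and Cpxm2 (0.0506).

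Many of these calls were lost when 1 library was left out, in some cases a library of the group outside the comparison. Each such fit also rests on fewer libraries, so the losses do not show that the omitted library was unusual. With construct 5 the 6 called genes became 2 when control replicate 1 was left out and 3 when construct 5 replicate 2 was. They became 1 when control replicate 2, control replicate 3, construct 5 replicate 1 or construct 7 replicate 3 was left out. With construct 7 the 3 called genes became 1 when construct 7 replicate 1 was left out, 2 when its replicate 3 was, and 0 for any 1 of the other 7 libraries. Between the constructs the 9 called genes became 3 and 5 on omitting construct 5 replicates 1 and 2, and 2 and 3 on omitting construct 7 replicates 1 and 3. No difference past the threshold changed sign in any of these settings.

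The median of all tested genes lay at 0.13 with construct 5 and at 0.02 with construct 7, and at -0.10 for construct 7 against construct 5. Median-ratio scaling, which sets the typical gene to no difference, moved the construct 5 values down. Ube2e1 became -0.81, Tulp4 -0.75, Eef2k -0.78, Stt3b -0.65, and Sec23a and Trappc1 -0.60 each with construct 5. Dync1h1 became 0.20 with construct 5 and -1.05 with construct 7, and Arhgap10 became -0.40 and -1.03. After scaling, 6 genes were still called with construct 5, 3 with construct 7 and 8 between the constructs, where Arhgap10 was no longer called (limma adjusted p = 0.0605). Opposite signs with the 2 constructs were then seen in 5 genes. Over all tested genes the calls between the constructs went from 16 higher and 116 lower to 38 and 41.

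**Figure D2:**
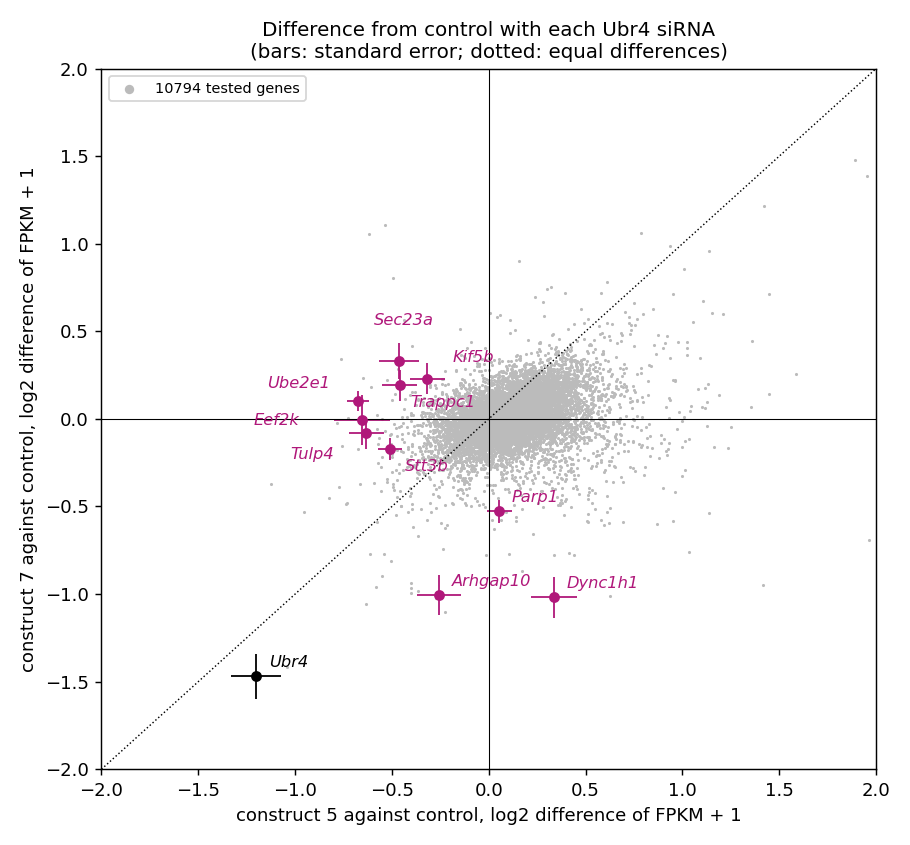
Log2 difference from control of each tested gene with construct 5 (horizontal axis) and construct 7 (vertical axis), with Ubr4 in black and the 10 genes in colour, and bars of 1 standard error. Both axes share the control libraries, 7 tested genes lie outside the plotted range, and Ubr4 lies near the dotted line of equal differences while Dync1h1 (0.34 and -1.02) and Sec23a (-0.46 and 0.33) lie far from it.

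Within the siRNA groups the library with the least Ubr4 was the lowest for some members and not for others. With construct 5, Ubr4 was lowest in replicate 3 at 2.73 FPKM, where Ube2e1 stood at 7.83 FPKM, against 8.08 FPKM in replicate 2, where Ubr4 was highest at 3.80 FPKM. With construct 7, Ubr4 was lowest in replicate 1 at 2.25 FPKM, and Dync1h1 was lowest there too at 4.23 FPKM. Arhgap10 was lowest in replicate 2 at 6.66 FPKM and Parp1 in replicate 3 at 11.4 FPKM. With 3 libraries in a group no relation was tested.

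The genes whose levels were most like each member over the 9 libraries were found by Pearson's r of log2(FPKM + 1) among all tested genes, a description in which the points share the 3 groups. Cul1, the scaffold of a cullin ubiquitin ligase, was most like Ube2e1 (r = 0.9698). Cul1 stood at 20.2, 20.5 and 21.7 FPKM in the controls, 16.6, 16.6 and 16.1 FPKM with construct 5 and 21.7, 21.8 and 20.3 FPKM with construct 7. Its construct 5 libraries were below all others, as those of Ube2e1 were. Cul1 was picked for its likeness to Ube2e1 over these libraries, so nothing is read from that shared order. Nsf, the ATPase that takes apart SNARE complexes after membrane fusion, was most like Trappc1 (r = 0.9506). Vamp3, a vesicle SNARE, was most like Kif5b (r = 0.9798), and Pldn was second for both Kif5b (r = 0.962) and Trappc1 (r = 0.9493). The phosphatase subunit Ppp2r2a (r = 0.9762) and Hoxc10 (r = 0.9832) were most like Tulp4. Chmp4b, a subunit of the ESCRT-III membrane-cutting machinery, was second for Dync1h1 (r = 0.9571). Among the members, Dync1h1 and Parp1 were alike (r = 0.966), as were Tulp4 and Stt3b (r = 0.947) and Ube2e1 and Trappc1 (r = 0.941). Arhgap10 had the highest r with Ubr4 (0.773) and Sec23a the lowest (-0.066).

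**Figure D3:**
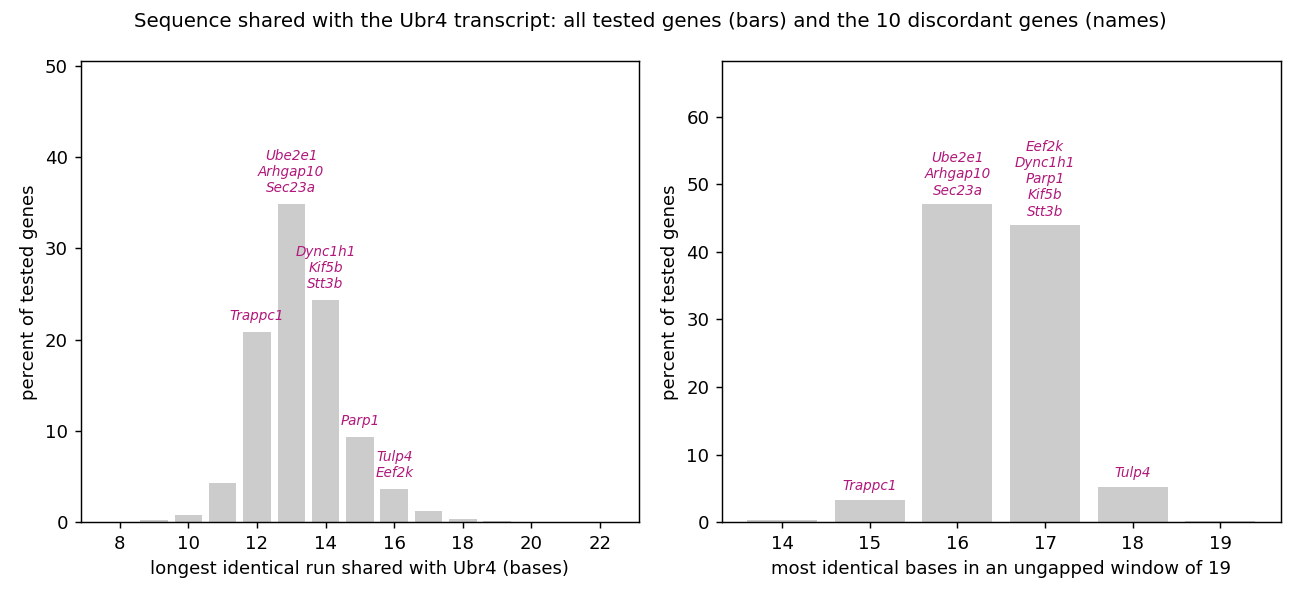
Distribution over tested genes of the longest run of bases identical to the Ubr4 transcript (left) and of the best match to it in any window of 19 bases (right), in percent of genes, with the 10 members marked. Members span runs of 12 to 16 bases and windows of 15 to 18 identical bases, and none reaches an identical window of 19.

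Sequence shared with Ubr4 was examined for all 10 genes, a description chosen after their values were known. An siRNA that targets Ubr4 matches it along its length, so a window that a gene shares with Ubr4 is 1 place where such an siRNA could pair with both. Over 10680 tested genes with a transcript the median longest run was 13 bases and the median best window 16 of 19 bases. An identical window of 19 bases was found in 23 genes and in none of the members. Tulp4 and Eef2k shared the longest runs, 16 bases each, and Parp1 shared 15. The Eef2k window, with 2 mismatches, lies in the 3′ untranslated region of both transcripts. Trappc1, the shortest transcript at 759 bases, shared the least, with a run of 12 bases and 15 of 19 matched. Longer transcripts hold more windows, and the members' median length of 4165 bases exceeded the 2841 bases of the tested genes. Only windows on the sense strand of Ubr4 were searched, over the whole of its transcript and not at the places that constructs 5 and 7 target. Whether either siRNA pairs with a member was not tested.

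Promoters, from 250 bases before to 50 after the start, were found in RefSeq (GRCm38.p6) for 7 of the members, 10 promoters in all, since Tulp4 has 2 and Eef2k 3. Those of Arhgap10, Trappc1 and Kif5b were not used here. The GC box, letters GGGCGG on either strand with overlaps counted, was present in 8 of these 10 promoters, and in 35.7% of all 32851 promoters. The 2 without it were 1 promoter of Tulp4 and 1 of Eef2k. The Ubr4 promoter held 1 GC box too and had 67.3% GC. Shares over all promoters were taken with no filter on expression, which the members had passed. No share was taken over tested genes alone, so nothing is read from the difference. CACGTG was present in 3 of 10, against 7.15% of all promoters, and CCAAT in 2 of 10, against 37.4%. TATAAA and TGACGTCA were in none of the 10, against 13.6% and 1.79% of all promoters. The promoters of Ube2e1 and Dync1h1 had 73.0% and 62.3% GC, against a median of 52.7% over all promoters. These 2 are shown because their genes were called between the constructs in all 14 alternatives, in opposite directions. The Ube2e1 promoter is at chr14:18331795-18332094 on the minus strand and that of Dync1h1 at chr12:110601145-110601444 on the plus strand. Both are written 5′ to 3′ in the direction of transcription, with GC boxes in capitals. A match is a description of the letters and not a bound site.
Ube2e1: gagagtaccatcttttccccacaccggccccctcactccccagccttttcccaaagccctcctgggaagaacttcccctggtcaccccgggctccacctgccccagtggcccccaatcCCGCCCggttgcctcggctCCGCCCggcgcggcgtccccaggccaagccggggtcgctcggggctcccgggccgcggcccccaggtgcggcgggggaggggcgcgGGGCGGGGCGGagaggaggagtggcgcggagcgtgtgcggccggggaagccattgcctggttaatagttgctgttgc
Dync1h1: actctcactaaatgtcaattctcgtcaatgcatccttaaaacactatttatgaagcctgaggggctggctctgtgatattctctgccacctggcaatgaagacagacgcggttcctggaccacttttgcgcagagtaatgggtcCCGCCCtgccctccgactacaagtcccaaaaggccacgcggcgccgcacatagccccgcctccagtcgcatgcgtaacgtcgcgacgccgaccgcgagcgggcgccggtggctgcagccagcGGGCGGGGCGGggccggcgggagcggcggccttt

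The other genes of the members' complexes and pathways were followed through 13 lists with 180 tested genes. With construct 5 limma called 10 of them (5.56%, against 5.27% of all tested genes), 9 higher and 1 lower. With construct 7 limma called 0, though 24 had an unadjusted p under 0.05, and between the constructs 1 (0.556%, against 1.22%). Over all tested genes an unadjusted p under 0.05 was found in 31.9% with construct 5 and 9.47% with construct 7, the background for the unadjusted counts below. For the calls of each list with construct 5 the background is the 5.27% above. The median log2 difference of the partners was 0.15 with construct 5 and 0.06 with construct 7, beside 0.13 and 0.02 over all tested genes. These partner medians lay near those of all tested genes. The members were chosen from these comparisons, so nothing is read from how their differences stand beside those of the partners. After median-ratio scaling 1 partner was called with construct 5, Trappc3. The 10 calls also depended on which libraries were used. By limma 0 were past the threshold on omitting any control, construct 5 replicate 1 or 2, or construct 7 replicate 3. On omitting construct 7 replicate 1 there were 3.

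In Ube2e1's list of ubiquitin-activating and conjugating enzymes, 1 of 12 was called with construct 5. That was Ube2d2, an E2 of another family, which rose from 15.4 ± 0.219 to 19.1 ± 1.55 FPKM (SD, n = 3), a log2 difference of 0.29 (limma adjusted p = 0.0492). The close relative Ube2e3 stood at 4.16, 4.01 and 4.29 FPKM as means of control, construct 5 and construct 7, with log2 differences of -0.04 and 0.04. This paralogue was the 1 other gene of the Ube2e family to pass the filter, and it was not called. Of 7 genes in Tulp4's list and 22 that act on or below Eef2k, 0 were called with either construct by limma. At an unadjusted p under 0.05 there were 2 and 4 with construct 5 and 1 and 3 with construct 7. Eef2, the substrate of Eef2k, stood at 348, 357 and 352 FPKM, and Prkab1, a subunit of the kinase AMPK, differed by 0.31 with construct 5 (limma adjusted p = 0.0601).

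Among 29 tested dynein and dynactin genes 2 were called with construct 5, both higher, and 0 with construct 7 by limma (3 at an unadjusted p under 0.05). The intermediate chain Dync1i2 rose from 5.75 ± 0.330 to 7.67 ± 0.620 FPKM (SD, n = 3; log2 difference 0.36, limma adjusted p = 0.0461). The light intermediate chain Dync1li2 rose by 0.30 (limma adjusted p = 0.0471). With construct 7, in which Dync1h1 was lowest, Dync1i2 differed from the controls by 0.14 and Dync1li2 by 0.15, and the list's median was 0.06. The list also holds dynactin and adaptor genes, and no median of the dynein subunits alone was taken. Of 16 kinesin genes 1 was called, Kif3a (0.32 with construct 5, limma adjusted p = 0.04996), and Kif5a and Kif5c stayed below 0.2 FPKM as group means.

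In the secretory pathway the TRAPP list had 3 calls of 12 with construct 5, beside 5.27% of all tested genes. After median-ratio scaling it had 1. Trappc4 rose from 9.67 ± 0.345 to 13.3 ± 1.37 FPKM (SD, n = 3; log2 difference 0.42, limma adjusted p = 0.0406), and the small GTPase Rab1, which TRAPP activates, rose by 0.25 (limma adjusted p = 0.0491). Trappc3, a core subunit, was the 1 partner called lower with construct 5. It stood at 10.6, 10.1 and 10.2 FPKM in the controls, at 7.864, 8.996 and 7.41 FPKM with construct 5 and at 10.2, 11.3 and 10.9 FPKM with construct 7. Its construct 5 libraries were below all others, as those of Trappc1 were, with a log2 difference of -0.32 (limma adjusted p = 0.04996) and of 0.38 between the constructs (limma adjusted p = 0.053). After median-ratio scaling the latter was 0.49 (limma adjusted p = 0.0309). In the other lists 0 of 14 COPII genes and 0 of 10 oligosaccharyltransferase genes were called by limma with either construct. Lists this small do not allow their counts to be compared. At an unadjusted p under 0.05 there were 5 and 4 with construct 5, beside 31.9% of all tested genes, and 2 and 0 with construct 7, beside 9.47%. The paralogues Sec23b (1.87, 2.35 and 2.43 FPKM as group means) and Stt3a (2.95, 3.94 and 3.19 FPKM) were higher than control in both siRNA groups without a call. Sec23b differed from the controls by 0.22 and 0.26, and Stt3a by 0.32 and 0.08.

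Of 21 genes of the PARP family and its partners, Parp4 (0.38, limma adjusted p = 0.0406) and Parp8 (0.38, limma adjusted p = 0.0484) rose with construct 5. Parp8 stood at 4.09, 4.46 and 4.93 FPKM in the controls, 6.76, 6.11 and 5.62 FPKM with construct 5 and 4.19, 3.77 and 4.14 FPKM with construct 7. It was the 1 partner called between the constructs (-0.51, limma adjusted p = 0.0345), the same direction as Parp1. All 3 of its construct 5 libraries lay above the control range and 1 of its construct 7 libraries below it. Most of the list shared that direction: 16 of the 21 genes lay below 0 between the constructs. Their median was -0.11, beside -0.10 over all tested genes. Parp2 and Parp3 were not called with either construct. The genes that carry out small RNA silencing were not called either, 0 of 13 with each construct by limma (4 and 2 at an unadjusted p under 0.05). Drosha and Dicer1 differed from the controls by -0.10 and -0.04 with construct 5, the 2 of these 13 genes that lay below 0. The other 11 lay above 0, and the list's median was 0.19, beside 0.13 over all tested genes. Of 14 tested Ubr4 relatives and partners 0 were called by limma (6 and 2 with constructs 5 and 7 at an unadjusted p under 0.05), and Kcmf1, which binds Ubr4, differed by -0.26 with construct 5 (adjusted p = 0.0845) and 0.02 with construct 7.

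**Figure D4:**
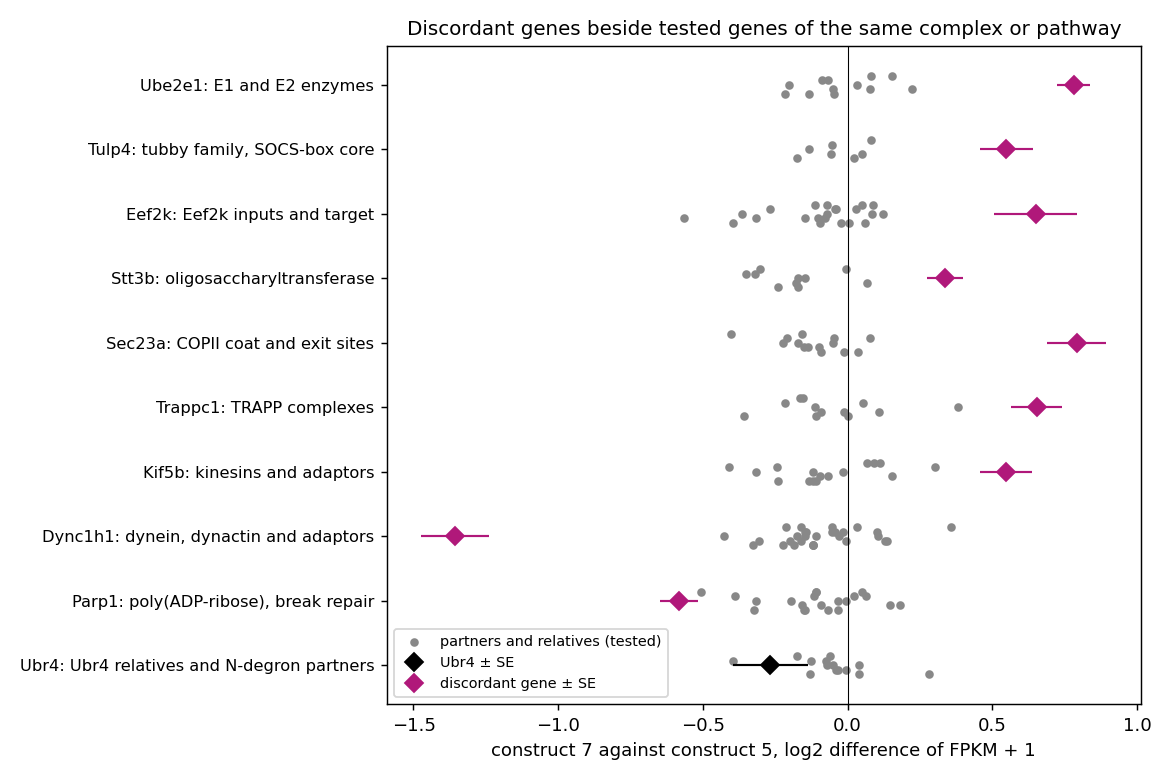
Log2 difference of construct 7 against construct 5 (horizontal axis) for 9 of the 10 genes (coloured diamonds, with bars of 1 standard error; Arhgap10 is not drawn) and for the tested genes of its complex or pathway (grey points), with Ubr4 and its relatives in the lowest line. These members were chosen for this difference, so their distance from the grey points is not a result. The members drawn run from -1.36 (Dync1h1) to 0.79 (Sec23a), and the partner nearest to its member is Parp8 at -0.51, beside Parp1 at -0.58.

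Cell type markers differed between the groups and are given beside these results. All 18 tested macrophage markers lay above 0 with construct 5, and 4 of them were called, against 4.67% of all tested genes called higher. After median-ratio scaling 0 were called by limma. Their summed level was 166 to 241 FPKM in the controls, 275 to 492 FPKM with construct 5 and 135 to 218 FPKM with construct 7. All 15 tested fibroblast and tendon markers lay above 0 with construct 5, with 3 called and 1 after scaling. With construct 7, 13 of the 15 lay below 0, with a median of -0.27 and 0 called by limma (5 at an unadjusted p under 0.05). Their sums were 424 to 504 FPKM in the controls, 624 to 863 FPKM with construct 5 and 332 to 409 FPKM with construct 7, so the 3 groups did not overlap. Sums of 12 endothelial markers overlapped between groups (131 to 158, 129 to 165 and 129 to 146 FPKM). The 16 defining markers of skeletal muscle were all detected, with sums of 103520 to 111010, 94445 to 105480 and 87498 to 108990 FPKM and 0 called by limma (2 with each construct at an unadjusted p under 0.05). No list had a marker at 0 in every library. Within construct 5 the library with the smallest macrophage sum, replicate 3, had Ube2e1 at 7.83, Tulp4 at 3.68 and Eef2k at 5.07 FPKM. The one with the largest sum, replicate 2, had them at 8.08, 3.999 and 5.76 FPKM. Stt3b, Sec23a and Trappc1 stood at 13.35, 13.42 and 16.04 FPKM in replicate 3 and at 13.72, 15.0 and 17.13 FPKM in replicate 2. In replicate 1 Sec23a and Trappc1 were at their lowest, 12.66 and 14.62 FPKM, and Stt3b at its highest, 14.05 FPKM. Between the constructs 3 macrophage and 7 fibroblast and tendon markers were called lower with construct 7, against 1.07% of all tested genes, and 1 and 3 after median-ratio scaling. The part of these cell types in the members' differences was not tested.

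Library depth, worked out from the spacing of low FPKM values, was 29312121 to 45563539 reads. At these depths 538 reads or more lay behind every member value, the lowest being Trappc1 in construct 5 replicate 1, where counting error alone is 4.31%. That is for counting error only. No source used here says whether the libraries keep strand, so reads of genes that overlap on opposite strands cannot be told apart. Correlations between libraries of a group were 0.9848 to 0.993.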

How the data were processed

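RNA-seq of tibialis anterior muscle was represented by 1 deposited table of FPKM for 23231 genes in 9 libraries, 3 per group. FPKM was computed by the authors; per the submitters' processing notes BWA, STAR and HTSeq were used with the genome build mm9, and their versions and roles are not given in the sources used here. Values were taken as deposited. Groups came from the sample labels.

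The 10794 genes with a mean of at least 1 FPKM were tested as log2(FPKM + 1), which understates changes of low genes, in 1 limma model over all 9 libraries (lmFit and eBayes with trend, limma 3.58.1, R 4.3.3). The spread was shared over the 3 groups, and p-values were adjusted by Benjamini-Hochberg over all tested genes within each comparison. The threshold was 0.05. The script was tested on simulated data.

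The members, the partner and marker lists and the comparisons were chosen with earlier results of these data known. Named were Ubr4, the members, called list genes (up to 6 a list), otherwise the genes of smallest p between the constructs, close relatives, and the most alike genes. The genes of 1 list, that of Arhgap10's partners, are counted among the partners and not reported here by name. The comparison of transcripts with Ubr4 (longest coding GENCODE M21 transcript, GRCm38) and the promoter search were added after the values were seen.

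Read depth was recovered with GENCODE lengths: 72.8% of 51717 values under 50 reads were whole within 0.1 reads. No count test was run on them. Alternatives were a pseudocount of 0.1, no filter, median-ratio scaling, the 6 libraries of a comparison alone, a replicate block and leaving out each library. Sequences were compared in Python 3.11.15 (numpy 2.4.6) with pandas 2.3.3 for tables, and figures were drawn with matplotlib 3.10.9.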

Additional observations from a re-analysis of the deposited data

How the results depend on the processing

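All counts here are limma calls at an adjusted p under 0.05. With construct 5 against control, 569 genes were called. The count was 316 with a pseudocount of 0.1, 5 with no filter, 78 with median-ratio scaling and 246 with the 6 libraries alone, and 1 to 581 with 1 library left out. Omitting control replicate 1 or 2 gave 4 and control replicate 3 gave 2. Omitting construct 5 replicates 1 and 2 gave 1 and 41, and omitting construct 7 replicates 1 and 3 gave 356 and 6. Of the 6 members, 2 were called with no filter and 1 to 6 with 1 library left out. Of the 10 partners, 6 were called with a pseudocount of 0.1, 0 with no filter, 1 with median-ratio scaling, 0 with the 6 libraries alone, and 0 to 10 with 1 library left out. Ubr4 was -1.20 with no filter (adjusted p = 0.0523), and -1.29 to -1.09 with 1 library left out.

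With construct 7 against control, 6 genes were called, 0 with no filter, 2 with the 6 libraries alone and 0 to 5 with 1 library left out (1 on omitting control replicate 1 or construct 5 replicate 1, 2 for construct 5 replicates 2 and 3, and 0 for control replicates 2 and 3 and construct 7 replicate 2). The 3 members became 0 with no filter or the 6 libraries alone, and 0 to 2 with 1 library left out. Ubr4 was -1.47 with no filter (adjusted p = 0.0976), and -1.56 to -1.38 with 1 library left out.

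Between the constructs 132 genes were called, 10 with no filter, 79 with median-ratio scaling, 23 with the 6 libraries alone and 3 to 387 with 1 library left out (52 to 55 on omitting a control, 17 and 38 for construct 5 replicates 1 and 2, 3, 387 and 4 for construct 7 replicates 1, 2 and 3). The 9 members became 3 with no filter and 2 to 8 with 1 library left out. The 1 partner became 0 with no filter, 2 with median-ratio scaling, 0 with the 6 libraries alone and 0 to 3 with 1 library left out. Ubr4 was -0.38 to -0.19 with 1 library left out and not called in any setting.

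Replicate numbers are shared between groups and were not taken as pairs, since the labels do not say what they mark. Deviations of same-numbered libraries from their group means had r from -0.364 to 0.313, and those of other pairs -0.566 to 0.518. With 3 libraries a group these values cannot settle whether libraries were paired. With the replicate number as a block, 11 genes, 1 member and 0 partners were called with construct 5, 7 genes and 1 member with construct 7, and 217 genes and 8 members between the constructs.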
